A study of Mus musculus with 3 samples.

Results

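The metallothionein genes Mt1 and Mt2 and the gene of their regulator, Mtf1, were followed in mouse embryonic stem cells exposed to the adenosine analogue tubercidin. The 3 genes were taken by symbol from the 32285 genes listed in the files. Cells of the E14 line (129/Ola background), grown in serum with leukaemia inhibitory factor, received 10 uM tubercidin in the medium for 3 h or for 6 h, or an equal volume of the solvent DMSO for 6 h, starting 24 h after seeding. Single-cell 3' libraries counted unique molecular identifiers (UMIs), each standing for 1 captured RNA molecule. Each condition is 1 library of this 1 line, so no difference between conditions was tested, and every interval below is an exact 95% interval of counting error only.

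Metallothioneins are small proteins, rich in cysteine, that bind zinc and copper and, on exposure, cadmium. Mtf1 encodes a zinc finger protein that senses free zinc, moves into the nucleus and binds metal response elements in the promoters of Mt1 and Mt2, so both genes respond to metal load. Oxidative stress and glucocorticoids, the latter through the glucocorticoid receptor, also induce them. Cytokines that act through STAT3, a pathway used by leukaemia inhibitory factor, can also induce them in other cells.

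Mt1 (ENSMUSG00000031765) lies on chromosome 8 at 94179082 to 94180327 and Mt2 (ENSMUSG00000031762) at 94172664 to 94173568, both on the plus strand of GRCm38 with 3 exons in their first listed transcript. The end of Mt2 and the start of Mt1 are 5514 bases apart. Mtf1 (ENSMUSG00000028890) lies on chromosome 4 at 124802104 to 124849800 and has 11 exons in its first listed transcript. The promoters of both metallothionein genes are shown because the pair was expressed together cell by cell, as described further on. The sequences are RefSeq's (GRCm38.p6, plus strand, 250 bases up to the RefSeq start), with matches to the core of the metal response element in capitals.
Mt1 promoter, chr8:94178839-94179088: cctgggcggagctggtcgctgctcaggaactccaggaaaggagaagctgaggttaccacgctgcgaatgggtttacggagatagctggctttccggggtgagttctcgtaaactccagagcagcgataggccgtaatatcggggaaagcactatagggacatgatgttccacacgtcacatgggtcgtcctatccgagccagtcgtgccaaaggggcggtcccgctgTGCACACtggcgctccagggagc
Mt2 promoter, chr8:94172368-94172617: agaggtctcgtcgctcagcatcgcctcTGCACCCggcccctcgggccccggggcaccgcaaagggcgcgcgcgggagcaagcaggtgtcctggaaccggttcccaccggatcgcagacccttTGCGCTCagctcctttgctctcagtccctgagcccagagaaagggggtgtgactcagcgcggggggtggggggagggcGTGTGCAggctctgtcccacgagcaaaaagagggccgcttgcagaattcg
The cores searched were TGCACNC and TGCGCNC, on both strands, over 300 bases that also take in 50 bases after the start. Mt1 had 3 matches, of which 1 lay before the RefSeq start and 2 lay just after it, at chr8:94179091-94179115, in the run TGCACTCcgcccgaaaagTGCGCTC. Mt2 had 4, of which 3 are in capitals above and 1, GTGCGCA, lay 5 to 11 bases after its RefSeq start. The RefSeq starts, 94179089 for Mt1 and 94172618 for Mt2, differ from the gene starts given above. Against 94172664 all 4 matches of Mt2 lie before the start. Where transcription starts in these cells was not measured, and bases further than 50 after the RefSeq start were not searched. Before and after thus refer to listed starts only, and the stretches printed need not hold the whole promoters. Windows of the same length with at least 3 matches made up 1.97% of 32817 promoters, and those with at least 4 made up 0.518%. Mt3 and Mt4 had 1 match each and Mtf1 had 0. The core of the antioxidant response element, TGACNNNGC, was found 1 time in the window of Mt2 and not in that of Mt1. It was found in 12.4% of all promoters. The E-box CACGTG was found in neither window and in 7.15% of all promoters. A core not found in a window can lie outside it, so these results set no difference between the genes. A match describes letters in a window and does not show binding.

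The control library had 2031 called cells, the 3 h library 2365 and the 6 h library 2926, with medians of 48452, 11877 and 8004.5 UMIs. Cell barcodes shared between any pair of libraries numbered 1. All 10 stem cell markers were detected in every library, with summed levels of 4148 to 5658 CPM (a gene's UMIs after every library is scaled to the same total). The summed markers of mesoderm, fibroblasts and 2-cell-like cells stayed between 0.0477 and 2.19 CPM, with Zscan4c and Zscan4f at 0 throughout, and those of primitive endoderm, trophoblast and neural cells between 35.6 and 153 CPM. Cells over 10% mitochondrial UMIs numbered 26, 124 and 50 in the 3 libraries. Because depth and RNA content per cell differ together between the libraries, UMIs per cell combine both.

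Mt1 and Mt2 kept nearly the same share of the RNA after tubercidin, while their UMIs per cell were lower, along with those of nearly every gene (7785 of 7884 genes were at least 2-fold lower per cell in the 3 h library). Control cells had Mt1 at 1246 CPM (interval 1239 to 1253), the 3 h library at 1045 CPM (1033 to 1056) and the 6 h library at 1370 CPM (1355 to 1384). The 3 intervals did not overlap, and the order was 3 h, control, 6 h. Mt2 was measured at 778 CPM (773 to 784) in control cells, 831 CPM (821 to 841) after 3 h and 898 CPM (886 to 910) after 6 h. Its intervals were again separate, with the control lowest. Mtf1, the regulator, gave 20.8 CPM (20 to 21.7), then 15.3 CPM (13.9 to 16.8) after 3 h and 20 CPM (18.2 to 21.8) after 6 h, from 2184, 457 and 493 UMIs. Only its 3 h interval stood apart from the others.

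**Figure D1:**
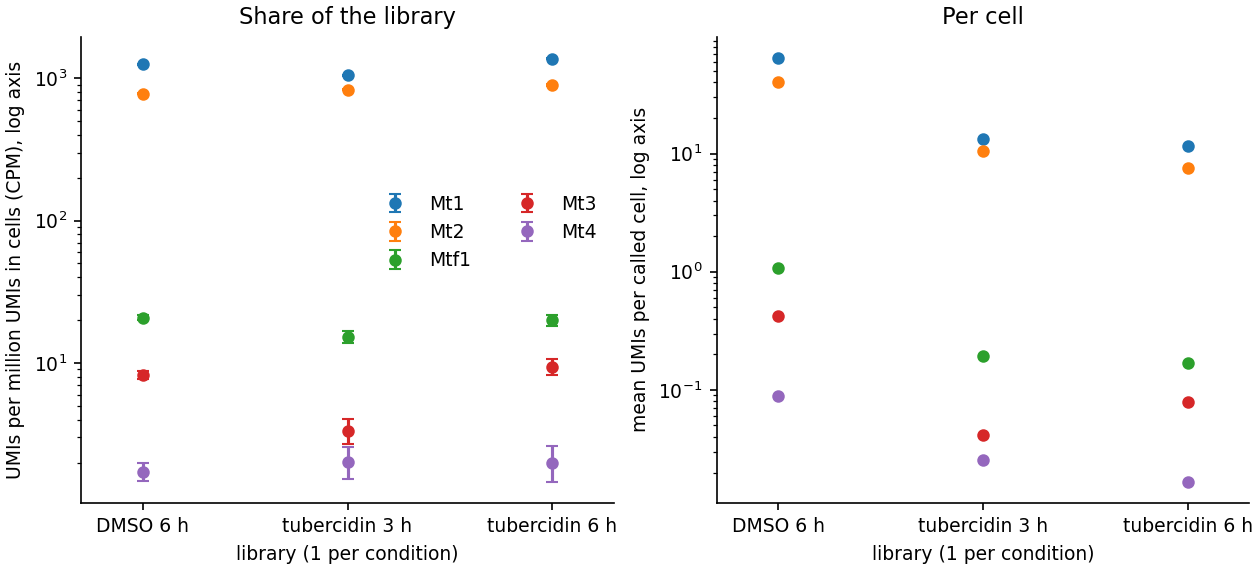
Level of the 4 metallothionein genes and Mtf1 in each library as a share of the UMIs in cells (left, CPM, log axis, bars are exact 95% counting intervals) and as mean UMIs per called cell (right, log axis). Mt1 stays between 1045 and 1370 CPM and Mt2 between 778 and 898 CPM, whereas both fall per cell, Mt1 from 64.4 to 13.2 and 11.6 UMIs.

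As ratios to the control without a pseudocount, Mt1 was at 0.838 times its control share at 3 h (0.828 to 0.849) and at 1.10 times at 6 h (1.09 to 1.11). Mt2 was at 1.07 times (1.05 to 1.08) and 1.15 times (1.14 to 1.17). Mtf1 was at 0.734 times at 3 h (0.662 to 0.813) and at 0.959 times at 6 h (0.868 to 1.06), where the interval included 1. None of the 3 genes reached the 2-fold size by which genes were counted. Among the 7884 genes averaging 10 CPM or more, 0.888% passed 2-fold upward and 5.54% downward in the 3 h library. For 6 h the shares were 2.33% and 4.41%, and for 6 h against 3 h they were 1.64% and 0.165%. The share of genes past 2-fold was thus small in every comparison, and 0 of 3 members does not set them apart from other genes.

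The scaling matters for changes of this size, since the median gene had a log2 ratio (of CPM + 1) of -0.27 at 3 h and -0.12 at 6 h, and median-of-ratios factors shift all genes by 0.27 and 0.12. Relative to the median gene, Mt1 lay at 0.018 at 3 h and 0.26 at 6 h on the log2 scale. Mt1 at 3 h was therefore at the middle of all genes, and over 12 alternative settings its position ran from -0.12 to 0.066, with no fixed sign. At 6 h the position of Mt1 ran from 0.058 to 0.31 over these settings. The position of Mt2 was 0.37 above the median gene after 3 h, with 0.23 to 0.38 over the same settings, and 0.33 after 6 h, with 0.13 to 0.34. Mtf1 lay at -0.15 after 3 h (-0.21 to -0.046) and at 0.063 after 6 h (0.033 to 0.17). The setting of UMIs per cell gave the ends -0.12 and 0.058 for Mt1, 0.23 and 0.13 for Mt2, and -0.046 and 0.17 for Mtf1. Dividing by cells shifts every gene alike, so these ends come from the pseudocount, which weighs more there. Without that setting they were -0.039 and 0.22 for Mt1, 0.33 and 0.29 for Mt2, and -0.063 and 0.11 for Mtf1. Both treated libraries were set against the same control library, so values at 3 h and 6 h are not independent of each other.

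Per called cell, the mean number of Mt1 UMIs was 64.4 in the control library, 13.2 in the 3 h library and 11.6 in the 6 h library. That of Mt2 was 40.2, 10.5 and 7.58, and that of Mtf1 was 1.08, 0.193 and 0.168. Against control cells this was 4.87-fold lower for Mt1 in the 3 h library and 5.57-fold in the 6 h library, and 3.83-fold and 5.31-fold for Mt2. For the median gene it was 4.97-fold and 6.67-fold. Fewer RNA molecules in a cell and shallower sequencing of it cannot be told apart here.

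The proportion of Mt1 to Mt2 does not depend on scaling, since both are read in the same cells. Control cells had 1.60 Mt1 UMIs for each Mt2 UMI (1.59 to 1.62), 3 h cells 1.26 (1.24 to 1.28) and 6 h cells 1.53 (1.5 to 1.55). The 3 h library had the lowest proportion, and no pair of intervals overlapped. The same order held in the barcodes outside the called cells, where the proportion was 1.45 (1.41 to 1.49), 1.19 (1.15 to 1.24) and 1.30 (1.25 to 1.35). With 1 library each, a difference between cultures and an effect of the exposure cannot be told apart.

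The other members of the family are Mt3, known from the brain, and Mt4, known from stratified epithelia, which lie upstream of Mt2 in the same cluster. Mt3 had 8.22 CPM in control cells, 3.31 CPM after 3 h and 9.36 CPM after 6 h, from 862, 99 and 231 UMIs. Its share at 3 h was 0.403 times that of the control (0.324 to 0.497), and the 6 h interval of 0.981 to 1.32 included 1. Mt4 was at 1.73, 2.01 and 1.99 CPM, with intervals of the ratio that included 1 at both times. By the log2 ratio of CPM + 1, Mt3 was the family member past 2-fold, lower in the 3 h library (-1.10) and higher in the 6 h library against 3 h (1.26). Among the 13587 genes averaging 1 CPM or more, 6.20% were that much lower in the 3 h library, and 2.69% were that much higher and 0.243% lower between the treated libraries. Relative to the median gene, Mt3 lay at -0.82 at 3 h, inside 2-fold, and at 1.12 at 6 h against 3 h. Its 3 h call thus depends on the scaling.

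Mt1 and Mt2 were found in nearly every called cell. Mt1 had a UMI in 99.9% of control cells (99.6 to 100%), 97.9% of 3 h cells (97.2 to 98.4%) and 97.4% of 6 h cells (96.7 to 97.9%). Mt2 had one in 100% (99.8 to 100%), 98.3% (97.7 to 98.8%) and 96.8% (96.0 to 97.4%), and Mtf1 in 61.7% (59.5 to 63.8%), 17.2% (15.7 to 18.8%) and 14.9% (13.7 to 16.3%). These unthinned shares follow the depth and set no order. No cell type that should lack the genes was present to give a background. Over all barcodes outside the called cells, Mt1 was at 1034, 1035 and 1118 CPM and Mt2 at 713, 868 and 861 CPM, which is 0.817 to 1.04 times their level in cells. In the outside barcodes with under 100 UMIs alone, Mt1 was at 1246, 841 and 901 CPM and Mt2 at 616, 691 and 676 CPM, so the level outside cells depends on which barcodes are counted.

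The amount differed widely from cell to cell. In control cells Mt1 ranged from 15 UMIs at the 10th percentile over a median of 45 to 134 at the 90th percentile, and the highest cell had 826. Mt2 ran from 14 over 35 to 74 UMIs, with 274 in the highest cell. To compare libraries at equal depth, 4000 UMIs were drawn from each cell, which left out 0 control cells, 122 at 3 h and 284 at 6 h. The thinned mean of Mt1 was then 4.94, 4.19 and 5.55 UMIs in control, 3 h and 6 h cells, with medians of 4, 3 and 5. The highest thinned cell had 53, 29 and 43 Mt1 UMIs.

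**Figure D2:**
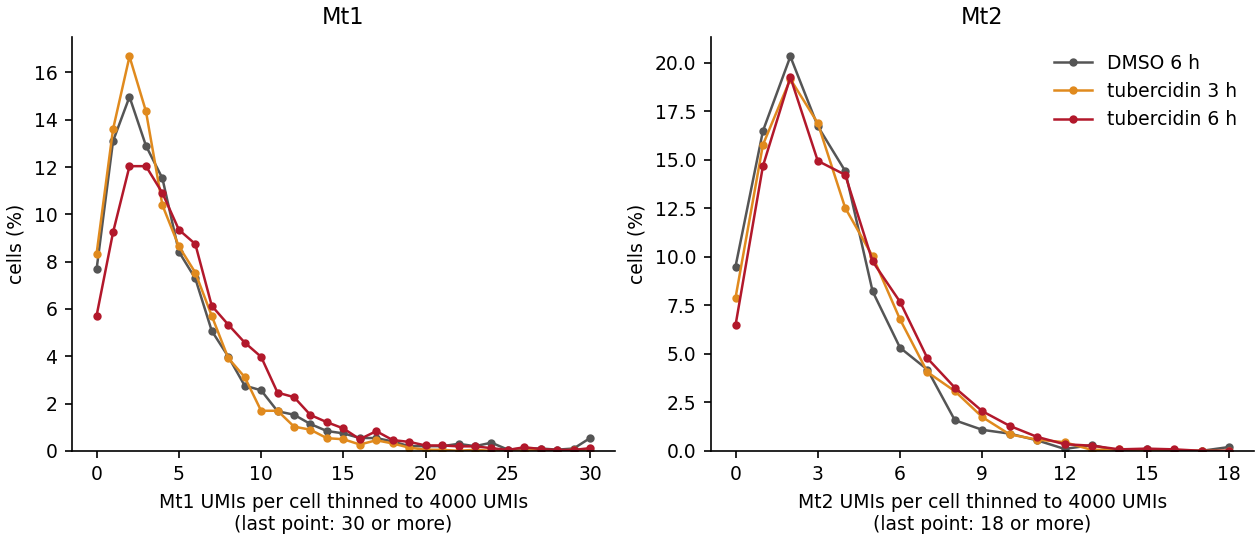
Percent of cells (vertical axis) with a given number of Mt1 (left) or Mt2 (right) UMIs after thinning each cell to 4000 UMIs, for 2031 control, 2243 3 h and 2642 6 h cells; the last point of each line gathers all higher counts. Each library forms 1 broad peak with a long upper tail; the tail of Mt1 is longest in the control, where 99% of cells lie at or below 24 UMIs, against 17 at 3 h and 21 at 6 h.

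Spread was measured as the excess squared coefficient of variation (CV), the variance over cells beyond that of random counting divided by the squared mean, which is 0 for counting alone. For Mt1 it was 0.864 over control cells, and 0.477 and 0.484 over 3 h and 6 h cells. This corresponds to a cell-to-cell CV of 92.9% in the control and of 69.0% and 69.5% after tubercidin. The control value was the highest, and over 5 further draws of the thinning the control stayed between 0.835 and 0.886, 3 h cells between 0.477 and 0.515, and 6 h cells between 0.461 and 0.493. Mt2 had 0.283, 0.226 and 0.228, a CV of 53.2%, 47.6% and 47.8%, with the same library highest. For Mtf1, at 0.0646 to 0.0950 UMIs per thinned cell, the value was not usable, as it changed sign between draws.

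The high cells carried much of this. The 10% of cells with most Mt1 held 33.4%, 28.7% and 27.9% of the thinned Mt1 UMIs of the 3 libraries, and for Mt2 26.4%, 25.2% and 24.8%. Leaving out cells above the 99th percentile of Mt1 brought its excess squared CV to 0.588, 0.405 and 0.386, still highest in the control. The same step for Mt2 brought its values to 0.199, 0.194 and 0.183, so that its control value lay close to that of 3 h. At the low end, 7.68%, 8.34% and 5.72% of thinned cells had no Mt1 UMI, where random counting around the same mean would leave 0.717%, 1.51% and 0.388%. UMIs outside the called cells made up 9.31% of the control library, 15.5% of 3 h and 15.9% of 6 h, moving with the smaller spread of the treated libraries, and their part in it was not tested.

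**Figure D3:**
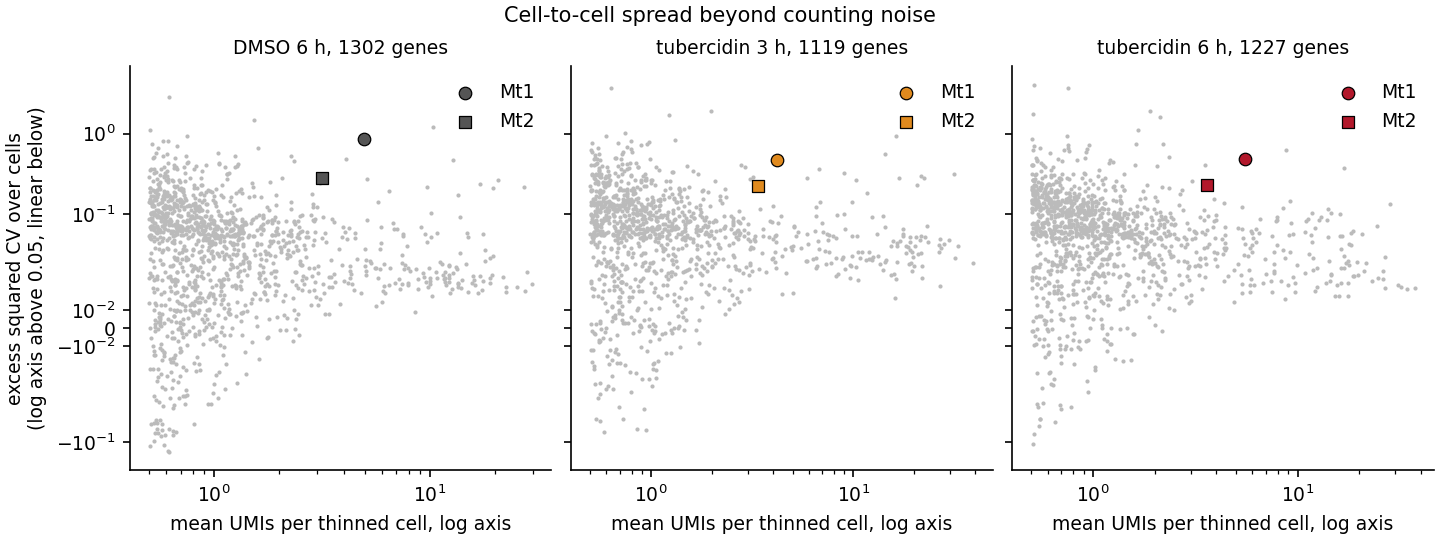
Excess squared CV over cells (vertical, log axis above 0.05 and linear below) against the mean UMIs per thinned cell (horizontal, log axis) for each gene averaging 0.5 UMIs or more, in the 3 libraries. Mt1 (circle, 0.864, 0.477 and 0.484) and Mt2 (square, 0.283, 0.226 and 0.228) lie above most genes of like mean (grey).

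Both genes stood high among genes of a similar level. Of the genes whose thinned mean was within 2-fold of that of Mt1, 0 of 139 had a larger excess squared CV over control cells, 0 of 144 over 3 h cells and 1 of 127 over 6 h cells, and their medians were 0.0351, 0.0496 and 0.0447. For Mt2 the numbers were 6 of 240, 10 of 191 and 9 of 208. Over genes averaging 0.5 UMIs or more, Mt1 ranked 6 of 1302 over control cells, 32 of 1119 over 3 h cells and 27 of 1227 over 6 h cells, and Mt2 ranked 63, 131 and 96. Ranks from sets of different size show no change between libraries.

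Cells with much Mt1 also had much Mt2. At 4000 UMIs per cell the Pearson r of log(1 + UMIs) between them was 0.469 over 2031 control cells, 0.414 over 2243 cells at 3 h and 0.453 over 2642 cells at 6 h. Random counting lowers such an r. A further r was taken on the UMIs without logs, with the counting variance taken out of each gene. It was 0.916, 0.825 and 0.820. Over 5 further draws it was 0.860 to 0.904, 0.832 to 0.884 and 0.826 to 0.884, so the ranges of all libraries overlapped. Without logs the few highest cells weigh more. The gap to the r on logs is therefore not the effect of counting alone. At this depth, cells with both genes numbered 1726, 1921 and 2351, and those with neither 44, 42 and 31. Cells of a library share its culture and preparation, so these are descriptions, with no test.

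**Figure D4:**
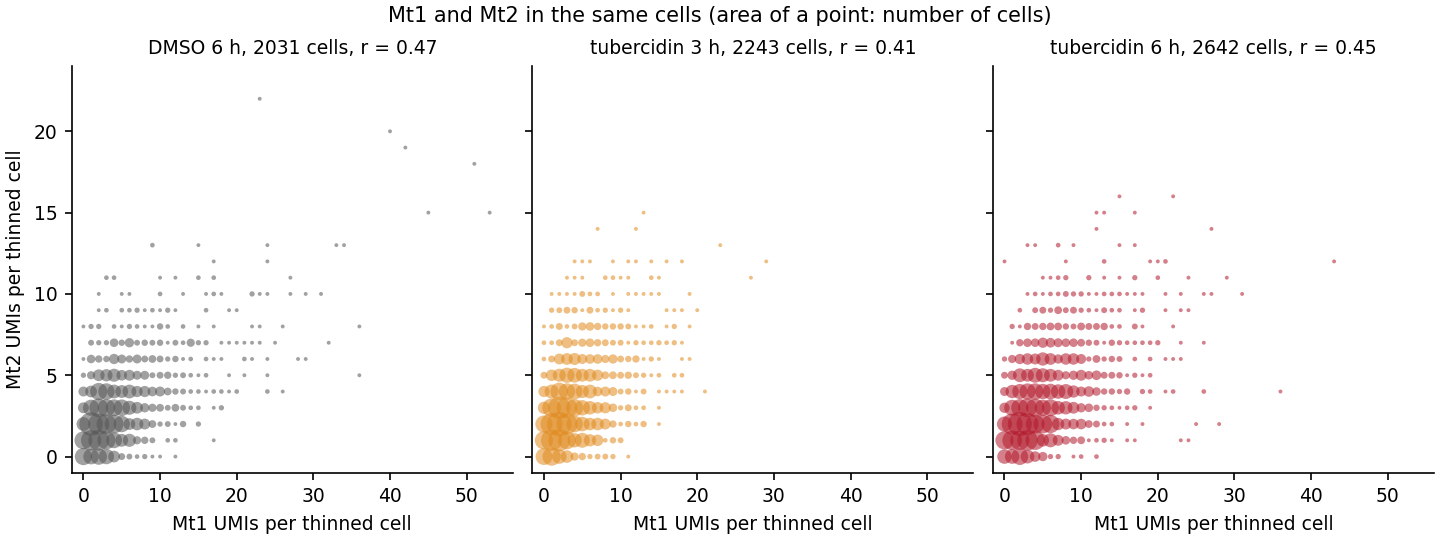
Mt1 UMIs (horizontal) against Mt2 UMIs (vertical) per cell thinned to 4000 UMIs, 1 panel for each library; the area of a point grows with the number of cells at that pair of values. The 2 genes rise together in every panel (r of 0.469, 0.414 and 0.453), and the cells with most of both, up to 53 Mt1 UMIs, are in the control.

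No other gene came near the r of the pair on log UMIs. Over the 3313, 2809 and 3061 other genes with at least 0.2 UMIs per thinned cell, the highest r with Mt1 alone was 0.198 in the control (Fth1), 0.170 at 3 h (Apoe) and 0.2 at 6 h (Hsp90aa1), and Mt2 ranked 1 for Mt1 in each library, as Mt1 did for Mt2. With the sum of Mt1 and Mt2, Fth1 and Hsp90aa1 were among the top 5 in all 3 libraries. Fth1, the ferritin heavy chain that stores iron, had an r of 0.222, 0.132 and 0.170. Hsp90aa1, a cytosolic chaperone, had 0.164, 0.135 and 0.218. Ftl1-ps1, a copy of the ferritin light chain gene whose reads can be confused with those of Ftl1, had 0.166, 0.130 and 0.159. The remaining genes in a top 5 were Rps20 and Fabp3 in the control, Apoe at 3 h, Cox4i1 and Lgals1 at 6 h, and S100a6 at both treated times, with r from 0.126 to 0.180 in those libraries. These correlations are weak and are listed only as the highest found. Counting variance was not taken out of them, and it lowers r most for genes with few UMIs. The ranking therefore also depends on level.

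Mtf1 UMIs did not go with those of its targets over cells. The r of Mtf1 with Mt1 was -0.012, -0.0049 and -0.042 over thinned control, 3 h and 6 h cells, and with Mt2 it was 0.010, 0.019 and -0.016. Without thinning, on UMIs scaled to each cell's total, the r of Mtf1 with Mt1 was -0.065, -0.028 and -0.064. With Mt2 it was then -0.050, 0.025 and -0.074. Control cells with 0, 1 and 2 or more Mtf1 UMIs had a summed Mt1 and Mt2 level of 2040, 2111 and 1925 CPM. At 6 h the same classes had 2309, 2119 and 1813 CPM, the last from 53 cells, and at 3 h 1884, 1893 and 1490 CPM, the last from 42 cells. Cells with more Mtf1 UMIs were also deeper, with medians of 44813.5, 49339.5 and 52850 UMIs in the control. Mtf1 had under 0.1 UMIs per thinned cell in every library, and at such counts an r near 0 says little about the relation.

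Depth and the mitochondrial share moved with the metallothionein level in places. Over 5 equal classes of control cells ordered by total UMIs, the summed level was 1828, 1798, 2026, 2311 and 2014 CPM from the shallowest to the deepest, with no steady trend. The same classes ran between 1820 and 1927 CPM at 3 h and between 2138 and 2408 CPM at 6 h. The 26 control cells over 10% mitochondrial UMIs had 395 CPM of Mt1, against 1249 CPM in the other 2005, and 316 against 780 CPM of Mt2. At 6 h 50 such cells had 786 against 1373 CPM of Mt1. At 3 h the 124 such cells had 1093 against 1044 CPM, so the lower level was not seen there. The cells over 10% were also shallower. Their median was 13515.5 against 48603 UMIs in the control, 3816.5 against 12207 at 3 h and 2421 against 8051.5 at 6 h. Depth and mitochondrial share were not separated in this split.

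Around the cluster, 16 measured genes begin within 250 kb of Mt1, and 11 of them, Mt1 and Mt2 included, averaged 1 CPM or more. Their changes did not run together. Nup93, a nuclear pore gene that starts 35.5 kb after Mt1, was at 107, 115 and 124 CPM, with log2 ratios of 0.11 at 3 h and 0.21 at 6 h. Bbs2, a gene of the primary cilium, had 0.57 and 0.40. Nudt21, a subunit of the cleavage factor that helps choose polyadenylation sites, had -0.28 and -0.60, and Ogfod1, a ribosomal prolyl hydroxylase, -0.54 and -0.46. Herpud1, a gene of protein quality control in the endoplasmic reticulum that starts 207.4 kb after Mt1, was at 34.4, 7.13 and 3.57 CPM, with log2 ratios of -2.13 and -2.96. The long noncoding RNA C78859 was at 0.257, 2.91 and 6.44 CPM. Gm45774, an antisense gene that overlaps Mt2, was below a mean of 1 CPM, at 1.05, 1.17 and 0.648 CPM.

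The rest of the metal and stress network was described from lists of transporters, targets and regulators. Of 90 listed genes outside the metallothionein family, 79 averaged 1 CPM or more. At least 2-fold higher were 2 at 3 h (2.53%, against 1.60% of all 13587 such genes) and 3 at 6 h (3.8%, against 4.56%). At least 2-fold lower were 3 at 3 h (3.8%, against 6.20%) and 6 at 6 h (7.59%, against 5.11%). The counts are small, and the shares lie near those of all genes. Log2 ratios are of CPM + 1 and understate the change of low genes.

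**Figure D5:**
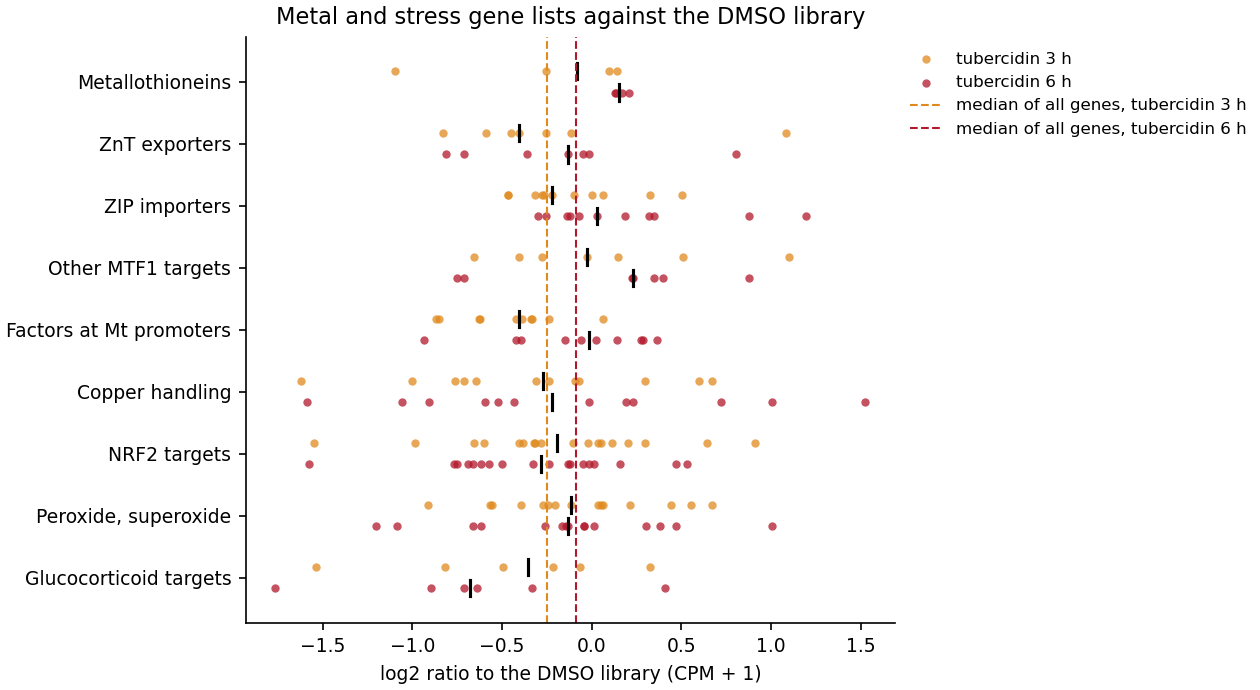
Log2 ratio to the control library (horizontal, CPM + 1) of each listed gene averaging 1 CPM or more at 3 h (orange) and 6 h (red), by list; black bars are list medians and dashed lines the medians of all such genes, -0.25 and -0.088. The 4 metallothioneins at 6 h lie at 0.13 to 0.21, while the other lists reach to both sides of the dashed lines. The 6 h intervals without pseudocount are wide for Mt3 (-0.028 to 0.40) and Mt4 (-0.28 to 0.66).

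Zinc export from the cytosol is served by the ZnT family. The median log2 ratio of its 7 measured members was -0.41 after 3 h and -0.13 after 6 h, against -0.25 and -0.088 for all genes. Slc30a1, which encodes the zinc exporter of the plasma membrane and is itself a target of Mtf1, was at 10.7, 7.79 and 6.12 CPM, with log2 ratios of -0.41 (interval without pseudocount -0.66 to -0.25) and -0.71 (-1.06 to -0.55). Slc30a2 was at 1.77, 4.88 and 3.85 CPM, and its log2 ratio of 1.09 at 3 h passed 2-fold. Slc30a4 was at 3.03, 1.27 and 1.30 CPM, and Slc30a5 at 31.0, 25.8 and 30.7 CPM.

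Zinc uptake is served by the ZIP family, whose 11 measured members had medians of -0.22 and 0.028. Slc39a4, which takes up dietary zinc in the intestine, was at 8.33, 12.2 and 16.1 CPM, with log2 ratios of 0.50 (0.37 to 0.73) and 0.88 (0.78 to 1.13). Slc39a2 was at 0.677, 1.10 and 2.84 CPM, at least 2-fold higher at 6 h with 1.19. Slc39a6 and Slc39a11 had the lowest 6 h ratios, -0.30 and -0.25.

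Other targets reported for Mtf1, 7 genes, had medians of -0.027 and 0.23. Selenow, a small selenoprotein, was at 154, 171 and 204 CPM. Ndrg1 was at 2.01, 5.45 and 4.54 CPM, at least 2-fold higher at 3 h with a log2 ratio of 1.10. Gclc, the catalytic subunit of the enzyme that limits glutathione synthesis, was at 50, 31.3 and 29.3 CPM, with -0.66 and -0.75. Of the 7 genes, 3 had a log2 ratio above 0 at 3 h and 5 at 6 h, where Slc30a1 and Gclc were the 2 below 0.

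The 10 factors that act at metallothionein promoters, Mtf1 included, had medians of -0.41 and -0.016. Hif1a, the hypoxia factor, was at 125, 68.3 and 93.4 CPM, with -0.87 and -0.42. Usf1 was at 14.5, 11.3 and 7.09 CPM, with -0.33 and -0.94, and its partner Usf2 at 26.8, 28.1 and 34.8 CPM, with 0.064 and 0.36. Crebbp, a histone acetyltransferase, was at 99.9, 78.9 and 122 CPM, with -0.34 and 0.29.

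Copper, which metallothioneins also bind, is distributed by chaperones and pumps, of which 12 were measured, with medians of -0.27 and -0.22. Atp7a, the pump that exports copper, was at 16, 24.7 and 47.9 CPM, with log2 ratios of 0.60 (0.50 to 0.75) and 1.53 (1.47 to 1.69). Sod1, the copper and zinc superoxide dismutase, was at 174, 277 and 351 CPM, with 0.67 (0.63 to 0.71) and 1.01 (0.97 to 1.05). Cox17, which carries copper to cytochrome oxidase, was at 152, 48.7 and 49.8 CPM, with -1.62 and -1.59. Sco2, which inserts copper there, was at 14.8, 6.92 and 6.60 CPM, with -1 (just inside 2-fold) and -1.06. The list thus held genes past 2-fold in both directions at 6 h, 2 higher and 2 lower.

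Of the oxidative stress lists, 18 measured targets of NRF2 had medians of -0.19 and -0.28. Hmox1, which degrades haem and is induced by many of the stresses that induce Mt1, was at 88.8, 66.7 and 51.7 CPM, with -0.41 (-0.48 to -0.34) and -0.77 (-0.87 to -0.70). Tkt and Pgd, of the pentose phosphate pathway, had 0.91 and 0.20 at 3 h and 0.47 and 0.53 at 6 h. Ftl1 had -1.55 and -1.58, with the uncertainty of its copies given above. The 15 enzymes that remove peroxide and superoxide had medians of -0.11 and -0.13. Among them Sod2, the mitochondrial superoxide dismutase, was at 224, 171 and 96.8 CPM, with -0.39 and -1.20. Prdx3, its mitochondrial neighbour in peroxide removal, had -0.91 and -1.08, and Prdx6 had 0.44 and 0.47.

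Glucocorticoid targets, of which 6 were measured, had medians of -0.36 and -0.68. Dusp1, a phosphatase of MAP kinases, was at 9.69, 2.68 and 2.15 CPM, with -1.54 and -1.76. Sgk1 was at 47.2, 40.4 and 24.9 CPM, Per1 at 4.39, 4.15 and 3.28 CPM, and Errfi1 at 9.05, 11.6 and 12.3 CPM. Errfi1 was the measured member of this list with positive log2 ratios, 0.33 and 0.41.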

How the data were processed

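Each deposited matrix gives unnormalised UMI counts for every gene in every barcode. The authors used Cell Ranger 7.1.0 and mm10, per the submitters' processing notes, and the files still held barcodes without cells. The annotation and the treatment of intronic reads are not given in the sources used here. A barcode was called a cell above a UMI minimum, set by dividing the 99th percentile of the 3000 largest barcodes by 10, if it had 500 genes or more and no more than 20% of its UMIs were mitochondrial. The minimums were 11033, 2961 and 2107 UMIs. The called cells held 104892739, 29892000 and 24681924 UMIs. The last filter removed 0, 7 and 1 barcodes, and doublets were kept. Counts were summed over cells and scaled to CPM, and log2 ratios used a pseudocount of 1 CPM. Ratio intervals are exact conditional binomial, those of levels exact Poisson and those of shares Clopper-Pearson, all at 95%. With 1 library per condition no test was run.

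For cell-level values 4000 UMIs were drawn per cell without replacement. Statistics were tested on simulated data. The genes and lists were chosen with earlier results of these data known. Named are the metallothioneins and Mtf1, the 2 highest and 2 lowest 6 h ratios of each list, genes of 1 CPM or more that begin within 250 kb of Mt1, and in each library the 5 genes most correlated with the sum of Mt1 and Mt2. Numbered predicted genes were left out of the last set. Gm45774 was named after its values were seen, and 1 gene in that interval is not reported here. GENCODE M21 (GRCm38) held 32235 of the 32285 identifiers, and promoters came from RefSeq (GRCm38.p6). Computation used Python 3.11.15, numpy 2.4.6, scipy 1.17.1, pandas 2.3.3, matplotlib 3.10.9 and, for TMM factors, edgeR 4.0.16 in R 4.3.3. Alternatives covered cell calling, scaling, free RNA, cell weights, the pseudocount and the thinning.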

Additional observations from a re-analysis of the deposited data

Results flagged for a closer look

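In CPM, Mt1 and Crebbp lay on opposite sides of the control at 3 h and 6 h beyond counting error. Mt1 had log2 ratios of -0.25 and 0.14, and Crebbp of -0.34 and 0.29. The difference between the times was not tested, and the negative sign of Mt1 at 3 h depends on the scaling: median-of-ratios and TMM factors gave 0.025 and 0.011. These factors shift all genes by 0.27 and 0.26 at 3 h, so most of the -0.34 of Crebbp depends on the scaling too.

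Over all barcodes outside the called cells, which the comparisons leave out, RNA held more Mt1 at 6 h and more Mt2 at both treated times than the same fraction of the control, beyond counting error. Mt1 was at 1118 CPM outside cells at 6 h, against 1034 CPM in the control. Mt2 was at 868 CPM at 3 h and 861 CPM at 6 h, against 713 CPM in the control. The direction for Mt1 depends on the barcodes counted: in those under 100 UMIs the control, 3 h and 6 h libraries had Mt1 at 1246, 841 and 901 CPM, and Mt2 at 616, 691 and 676 CPM. In the cells of the same libraries Mt1 was at 1370 CPM at 6 h and Mt2 at 831 and 898 CPM.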

How the results depend on the processing

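No paired analysis was possible because each condition has 1 library, and no library was left out. A second free-RNA profile and the removal of cells above the 99th percentile were chosen after seeing the data. Depth limits the cell-level values of Mtf1, with under 0.1 UMIs per thinned cell, and the ratios of Mt3 and Mt4, with 99 to 862 and 49 to 181 UMIs per library.

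Log2 ratios of Mt1, Mt2 and Mtf1 moved by less than their counting intervals under other cell minimums, a 10% mitochondrial limit, removal of cells with many UMIs, CPM without mitochondrial genes, a pseudocount of 0.1 CPM and the second free-RNA profile. Median-of-ratios and TMM factors, which centre the median gene, gave 0.025 and 0.011 for Mt1 at 3 h, 0.27 and 0.25 at 6 h, and 0.24 and 0.24 at 6 h against 3 h. For Mt2 they gave 0.37 and 0.36, 0.34 and 0.33, and -0.039 and -0.034, and -0.16 and -0.17 for Mtf1 at 3 h. With UMIs per cell, which carry depth, the values were -2.28, -2.47 and -0.19 for Mt1, -1.93, -2.40 and -0.47 for Mt2, and -2.20, -2.36 and -0.15 for Mtf1. They hold a pseudocount, which understates the fall of Mtf1. Without it Mtf1 was 5.56-fold lower per cell at 3 h and 6.38-fold at 6 h, against 4.87-fold and 5.57-fold for Mt1. Subtracting free RNA gave -0.22 and 0.19 for Mt1 at 3 h and 6 h, and equal weight for each cell 0.17 for Mt1 at 6 h and 0.13 for Mt2 at 3 h; the cause was not tested.

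Genes past 2-fold, higher then lower, numbered 70 and 437 for 3 h, 184 and 348 for 6 h, and 129 and 13 for 6 h against 3 h. With median-of-ratios factors the 3 h counts became 161 and 142 and those of 6 h against 3 h became 74 and 30. With TMM factors they became 152 and 151, then 76 and 29. Counts on UMIs per cell were 6 and 7785, then 6 and 7818, then 5 and 173. A mean of at least 50 CPM, which tests fewer genes, left 22 and 95, 42 and 75, and 23 and 4, and no filter 226 and 855, 679 and 707, and 389 and 33. Of the listed genes, UMIs per cell put 0 higher and 76 lower at 3 h, and 0 and 75 at 6 h.

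List medians less the all-gene median moved under UMIs per cell, where the pseudocount weighs more. At 3 h they became 0.14 (ZIP), 0.049 (Mtf1 targets), -0.40 (promoter factors), -0.19 (copper), -0.15 (NRF2), -0.084 (peroxide and superoxide) and -0.40 (glucocorticoid). At 6 h they became -0.19 (ZnT), 0.27 (ZIP), 0.097 (Mtf1 targets), -0.12 (promoter factors), -0.51 (NRF2), -0.36 (peroxide and superoxide) and -0.84 (glucocorticoid).

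The correlation of Mt1 with Mt2 followed depth: at 2000 UMIs it was 0.349, 0.276 and 0.340 in the control, 3 h and 6 h, and without thinning 0.834, 0.619 and 0.578. The excess squared CV of Mt1 and Mt2 stayed within 1.5 times under all alternatives run. That of Mtf1 is not used: it was -0.013, -0.14 and 0.44, became -0.18, 0.32 and -0.14 at 2000 UMIs, 0.14 and 0.14 without thinning in the control and at 3 h, and ran over further draws from -0.25 to 0.65, -0.51 to 0.87 and -0.098 to 0.79.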
